A study of Mus musculus with 6 samples.

Results

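Integrins and laminins are the receptor and matrix sides of cell adhesion, and 35 of their genes are described here: 25 integrin chains (17 alpha and 8 beta) and 10 laminin chains. A member was found by matching the RefSeq accession of each array probe to the 35 gene symbols, without use of any measured value. The array held 37065 named or numbered features, and 33 of the 35 members had at least 1 probe, 44 probes in all. Itga10 and Itgae matched no probe and are not analysed here. Of the 33, Itgb6 and Lamc3 were too dim for the test, which left 31 members.

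The cells were fibroblast cultures from male C57/Bl6-J mice aged 8 weeks in the sample labels and 8 to 10 weeks in the protocol. Heart cultures came from chopped hearts and tail cultures from skinned tails. Both were freed with trypsin or collagenase and grown for 5 days on plastic in serum, and no other treatment or allele is given for either group. Each tissue had 3 biological replicates, each pooled from 2 animals and measured on 1 Agilent 1-colour array, so animals cannot be separated within a pool. The labels do not say whether heart and tail pools shared animals. No cell sort is described, and "fibroblast" rests on growth on the dish. All 12 fibroblast markers checked, among them Col1a1, Pdgfra and Ddr2, were well above background on all 6 arrays. On heart 1, heart 3 and tail 1, so were all 12 endothelial and all 13 leukocyte markers with a probe. Detection alone therefore does not tell which cells the cultures held.

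An integrin is a pair of 1 alpha and 1 beta chain that spans the membrane, and the alpha chain largely decides which matrix protein the pair holds. A laminin is a cross-shaped trimer of 1 alpha, 1 beta and 1 gamma chain that forms the base sheet of basement membranes. Fibroblasts use integrins to grip collagen and fibronectin and to pull latent TGF-beta into its active form. Laminin alpha2 and alpha4 chains surround muscle fibres and vessels in the heart.

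All levels below are log2 signals minus the array's 75th percentile, so 0 is the 75th percentile. They rank arrays for a given gene and cannot rank genes, since probes differ in brightness. The arrays labelled heart 2 and tail 1 stood apart. On heart 2, 99.3% of spots were well above background, against 47.3% to 55.2% on the others. Its middle range of log2 signals was 2.59 wide, against 5.76 to 6.93. Tail 1 had ordinary scanner values, but it lay nearer the mean of heart 1 and 3 than that of tail 2 and 3 at 28 of the 31 tested members. Differences with both arrays kept under their labels are therefore given beside those without them. The 4-array comparison sets heart 1 and 3 against tail 2 and 3 (n = 2 per group). Because tail 1 was left out for its expression values, the 4-array p-values are smaller than they should be, by an amount that is not known. With bulk RNA, fewer cells of a type and less RNA per cell cannot be told apart.

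Split by label with all 6 arrays, no member differed between heart and tail at a limma adjusted p under 0.05 (0 of 31), nor did any feature (0 of 20196, or 0%, where 445 had an unadjusted p under 0.05). Member differences, heart minus tail, ran from -1.14 to 2.64 with adjusted p from 0.714 to 0.976. Their median was -0.19, beside -0.40 over all features. At an unadjusted p under 0.05 there were 2 members, Itga2 and Itgb8. No feature passed without heart 2 alone or without tail 1 alone either (0% of 20280 and 0% of 20482 features, with 578 and 1496 at an unadjusted p under 0.05).

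On the 4 arrays, 17 of 31 members passed, beside 14.4% of all features (2956 of 20566). Heart was higher at 15 members, where 7.75% of all features were higher, and lower at 2, where 6.63% were lower. The members' median difference was 1.13, beside -0.07 over all features. Laminin chains passed at 5 of 9 tested, all higher in heart, with a median of 1.47, where the median split by label was -0.29. Integrin chains passed at 12 of 22, 10 higher and 2 lower, with a median of 0.22 and, split by label, -0.07. Itga2, Itgb8 and Itga2b, which passed, entered the test through the group where they were brighter, since the other group was not well above background. Itgb1, the common beta chain of collagen and laminin receptors, did not pass. No tested member turned sign when heart 2 alone was left out, but 10 of the 31 did when both doubted arrays were kept under their labels. Among the 26 members well above background on all 4 arrays, 14 passed, where 2158 of 18555 such features did. The count was 10 without tail 2 (1901 of 21187 features), 8 without tail 3 (1568 of 21964) and 3 (Itga2, Itga2b and Lama2) with no filter on dim probes (714 of 37065), so counts over all features were lower there too.

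**Figure D1:**
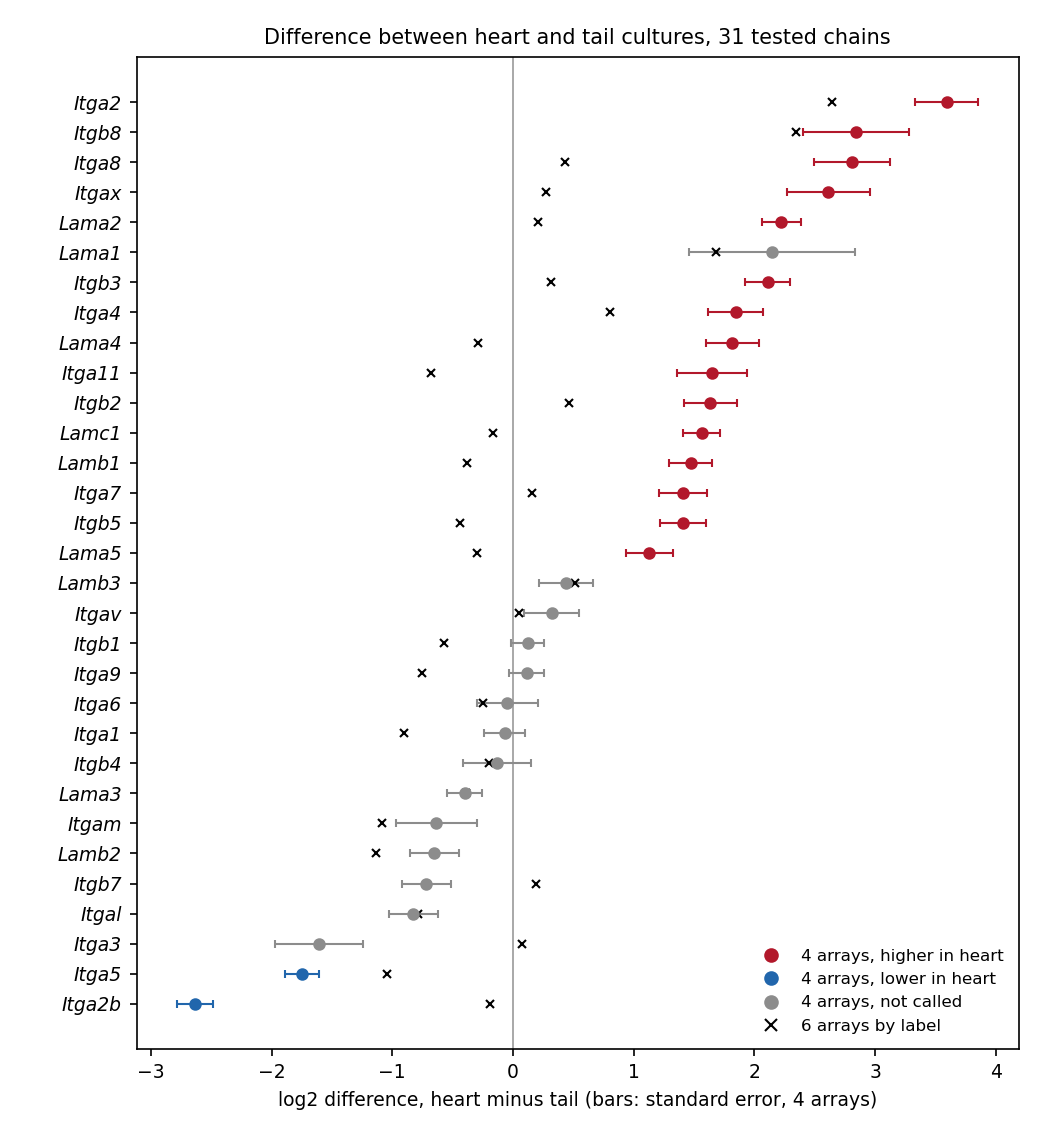
Log2 difference, heart minus tail, for each tested member (rows) on the 4 arrays (dots with SE bars) and on all 6 arrays split by label (crosses). Coloured dots are the 17 members with an adjusted p under 0.05 on the 4 arrays, and grey dots are members that did not pass. The 15 red dots lie to the right of 0 and the 2 blue dots, Itga5 and Itga2b, to the left. No cross has a passing p.

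The upstream sequences of 5 members that passed are printed because these genes differ between the cultures and stand for both directions. They are the 250 bases before the RefSeq start in GRCm38.p6, read 5′ to 3′ on the gene's strand. Lama2 lies at chr10:27616943-27617192 on the minus strand, Lama5 at chr2:180225860-180226109 on the minus strand, and Lamb1 at chr12:31265043-31265292 on the plus strand. Itga8 lies at chr2:12301945-12302194 and Itga5 at chr15:103366792-103367041, both on the minus strand. Capitals mark GC boxes, the letters GGGCGG or their reverse complement CCGCCC.
Lama2: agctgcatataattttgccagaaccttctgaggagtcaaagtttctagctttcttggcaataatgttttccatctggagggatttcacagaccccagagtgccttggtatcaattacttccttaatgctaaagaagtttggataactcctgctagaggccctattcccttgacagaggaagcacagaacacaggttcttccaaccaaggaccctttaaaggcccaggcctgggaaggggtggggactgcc
Lama5: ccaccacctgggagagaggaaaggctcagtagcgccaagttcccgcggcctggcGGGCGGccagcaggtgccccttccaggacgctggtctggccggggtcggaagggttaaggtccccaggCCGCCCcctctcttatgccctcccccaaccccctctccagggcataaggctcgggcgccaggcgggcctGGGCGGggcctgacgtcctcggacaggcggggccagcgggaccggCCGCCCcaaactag
Lamb1: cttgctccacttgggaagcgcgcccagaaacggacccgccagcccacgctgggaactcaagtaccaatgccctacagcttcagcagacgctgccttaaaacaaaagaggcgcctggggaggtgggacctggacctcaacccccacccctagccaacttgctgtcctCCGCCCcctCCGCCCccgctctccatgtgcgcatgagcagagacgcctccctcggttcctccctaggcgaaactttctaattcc
Itga8: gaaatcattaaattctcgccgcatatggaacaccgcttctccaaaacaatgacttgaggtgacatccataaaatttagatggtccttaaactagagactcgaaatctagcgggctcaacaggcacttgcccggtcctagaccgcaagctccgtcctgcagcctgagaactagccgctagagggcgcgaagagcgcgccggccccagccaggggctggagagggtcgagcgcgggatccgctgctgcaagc
Itga5: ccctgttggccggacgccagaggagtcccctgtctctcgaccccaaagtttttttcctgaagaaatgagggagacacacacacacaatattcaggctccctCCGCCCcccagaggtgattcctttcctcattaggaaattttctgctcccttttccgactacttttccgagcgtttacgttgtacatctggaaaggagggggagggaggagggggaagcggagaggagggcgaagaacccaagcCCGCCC

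The GC box appeared 4 times upstream of Lama5, 2 times each upstream of Lamb1 and Itga5, and not upstream of Lama2 or Itga8. GC content was 72.4% for Lama5 and 47.2% for Lama2, around a median of 52.4% over all promoters. RefSeq promoters were at hand for 23 of the 35 members (26 promoters), and 9 of the 26 held a GC box, against 32.7% of all 32851 promoters. Of the 12 promoters of members that passed, 5 held it. The other 3 words were likewise searched on both strands. The letters AGATAA, known from the binding of GATA-family factors, were in 1 of the 26 (Itgax), against 9.99% of all promoters. CAGCTG, an E-box, was in 6, against 13%, and AGGTGT, a T-box word, in 3, against 11.8%. None of the words overlapped in the 5 sequences shown, where GC boxes were the sole match. These matches describe letters and say nothing of binding.

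Laminin alpha chains carry the end that cell receptors hold, and 3 of the 5 tested rose in heart on the 4 arrays. Lama2, the alpha chain of muscle laminin that binds dystroglycan and alpha7 integrin, read 4.34 and 4.40 on heart 1 and 3 and 2.03 and 2.27 on tail 2 and 3. Heart 2 read 0.57, the lowest of the 6 arrays, and tail 1 read 4.40, level with heart 3. The heart level was 4.67-fold higher (log2 2.22, SE 0.16, limma adjusted p = 0.00285), and a second probe gave 2.06, also passing. Lama4, the alpha chain of vessel and fat laminins, read 5.08 and 5.53 in heart against 3.61 and 3.37 in tail, with 0.94 on heart 2 and 5.44 on tail 1. It was 3.52-fold higher in heart (log2 1.82, SE 0.22, adjusted p = 0.0102). Lama5, a chain of mature vessel and epithelial basement membranes, read 1.95 and 1.59 against 0.74 and 0.55, with -1.05 on heart 2 and 2.09 on tail 1. This was the smallest passing difference among the laminins, 2.19-fold (log2 1.13, SE 0.19, adjusted p = 0.0273). In all 3 genes the pairs did not overlap, and split by label the differences were 0.21, -0.29 and -0.30.

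Lama1, the alpha chain of the early embryo's laminin, read -2.94 and -1.17 in heart against -3.71 and -4.68 in tail, with -0.72 on heart 2 and -1.47 on tail 1. The pairs did not overlap, but heart 1 and 3 lay far apart and the difference of 2.14 did not pass (SE 0.68, adjusted p = 0.127). Its tail 3 signal was not well above background, and the labelled difference was 1.68. Lama3, the alpha chain of skin laminin, lay between -1.68 and -0.96 on all 6 arrays and did not pass (log2 -0.40, SE 0.15, adjusted p = 0.163; -0.39 by label).

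Beta and gamma chains complete the trimer. Lamb1, the beta chain paired with alpha2 and alpha4 in many tissues, read 6.42 and 6.75 in heart against 5.10 and 5.13 in tail, with 2.69 on heart 2 and 6.77 on tail 1. Heart exceeded tail 2.77-fold (log2 1.47, SE 0.18, adjusted p = 0.0105). Lamc1, the gamma chain of most laminins, read 6.61 and 6.77 against 5.08 and 5.18, with 3.09 on heart 2 and 6.72 on tail 1. It was 2.96-fold higher in heart (log2 1.56, SE 0.15, adjusted p = 0.00615). Thus the chains of the alpha2-beta1-gamma1 and alpha4-beta1-gamma1 trimers were all higher in heart on the 4 arrays, and at each of them heart 2 was the lowest array and tail 1 lay with heart 1 and 3. Split by label, the differences of Lamb1 and Lamc1 were -0.38 and -0.17. In the authors' deposited table of heart over tail, Lamc1 has a log2 fold change of 1.67 and is the sole member among its 433 probes, whose smallest absolute fold is 2.00. Tail 1 was doubted from its expression set against that table, so this value is no independent check of the 4-array difference.

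Lamb2, the beta chain that replaces beta1 at synapses and in kidney, had a difference of the other sign, at 4.04 and 4.48 in heart and 4.95 and 4.87 in tail. With 2.30 on heart 2 and 4.41 on tail 1, the difference of -0.65 did not pass (SE 0.21, adjusted p = 0.124; -1.14 by label). Lamb3, a skin laminin chain, lay between -2.93 and -1.94 on all 6 arrays (log2 0.44, SE 0.23, adjusted p = 0.278; 0.51 by label). Lamc3 was well above background on heart 2, tail 1 and tail 2 alone and was not tested.

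**Figure D2:**
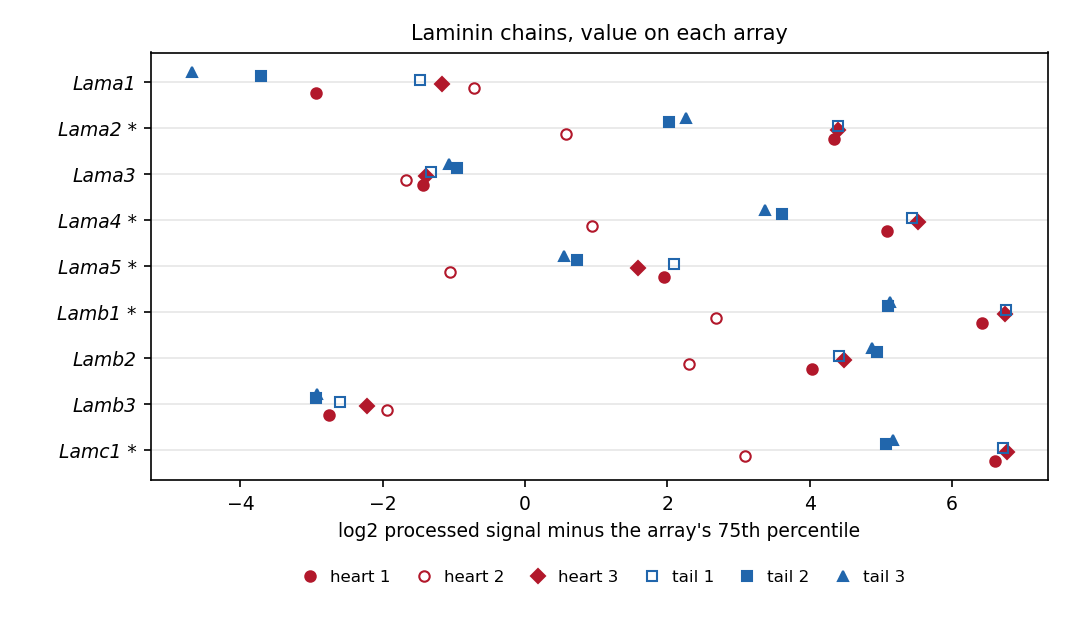
Log2 level of each tested laminin chain (rows) on each array, relative to the array's 75th percentile (horizontal axis, 1 point per array); red is heart, blue is tail, filled points are heart 1, heart 3, tail 2 and tail 3, and open points are heart 2 and tail 1. For Lama2, Lama4, Lama5, Lamb1 and Lamc1 the filled heart points lie above the filled tail points, the open tail point lies with heart, and the open heart point lies lowest.

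Endothelial markers, like the laminins that passed, were mostly higher in heart on the 4 arrays. Split by label, 10 of 12 endothelial markers lay above 0, where the laminin median was -0.29. That split includes heart 2, whose narrow signal range shifts bright and dim probes differently. It therefore cannot tell whether these markers follow the laminins. Of 12 endothelial markers tested, 9 were higher in heart and 0 lower on the 4 arrays, with a median of 2.06 (1.25 by label). They included Icam2 (log2 3.18), and Tie1, Robo4 and Cldn5, which were not well above background on tail 2 and 3 and were at least 1.72-fold, 16.2-fold and 8.96-fold higher. Such bounds hold only for the background subtraction used here, and at Robo4 the bound equals the fitted fold. All 12 were well above background on heart 1, heart 3 and tail 1, and 8 of 12 on tail 2 and tail 3. Their summed level did not separate the pairs, at 4.92 and 5.21 in heart and 5.22 and 4.86 in tail. Of 12 fibroblast markers, 5 were higher and 1 lower, with a median of 0.84, led by Lum (log2 2.95), Fap (2.54), Thy1 (-1.89) and Pdgfra (1.68). Split by label their median was -0.51 with 1 of 12 above 0, and Lum and Pdgfra turned sign, to -0.05 and -0.26. The part of endothelial cells in the laminin differences was not tested.

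Collagen-binding integrin alpha chains pair with Itgb1, and 2 of 3 tested rose in heart. Itga11, the main receptor of fibroblasts for fibrillar collagen, read 4.66 and 5.21 in heart and 3.55 and 3.03 in tail, with -0.24 on heart 2 and 5.09 on tail 1. It was 3.14-fold higher (log2 1.65, SE 0.29, adjusted p = 0.0287), and split by label the sign turned to -0.68. Itga2, the collagen receptor of platelets and epithelia, read -2.47 and -2.98 in heart, and its -6.53 and -6.11 in tail were not well above background. Heart 2 read -2.51 and tail 1 read -3.24, both above background. The heart level was at least 2.60-fold higher (fitted log2 3.59, SE 0.26, adjusted p = 0.00285). With normexp background correction and an offset of 50, the fitted value was only 0.87 (adjusted p = 0.0158), a smaller fold than that bound. Here heart 2 lay with the other hearts, and the labelled difference kept its sign at 2.64 (adjusted p = 0.714). However, heart 2 also read high at genes that were dim elsewhere. All 12 epithelial markers were well above background on it, against 4 to 6 on the other arrays. Its place at a probe this dim in tail therefore cannot be read as a trait of heart. Itga1, a collagen receptor of mesenchymal cells, lay between 1.29 and 1.55 on 5 arrays with -1.17 on heart 2, and the 4-array difference was -0.07 (SE 0.17, adjusted p = 0.821; -0.91 by label).

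Among the laminin-binding alpha chains, 1 of 3 rose. Itga7, the laminin receptor of muscle cells, read 0.86 and 1.20 in heart against -0.50 and -0.26 in tail, with -1.32 on heart 2 and 1.02 on tail 1. Heart exceeded tail 2.66-fold (log2 1.41, SE 0.20, adjusted p = 0.0153), and the labelled difference was 0.16. Skeletal muscle markers ran the other way, with 0 of 5 tested higher and 3 lower: Myh3 (at least 16.0-fold), Myog (at least 2.90-fold) and Acta1 (log2 -1.57). Of 3 cardiomyocyte markers tested, 1 was higher, Tnnt2 (log2 4.26), and Myh6 was among the 5 not tested. Itga6, a laminin receptor of epithelia and vessels, lay between 0.87 and 1.81 on all 6 arrays (log2 -0.05, SE 0.25, adjusted p = 0.92; -0.25 by label). Itga3, another laminin receptor of epithelia, read -3.37 and -2.39 in heart and -1.15 and -1.40 in tail, and its difference of -1.61 missed the threshold (SE 0.36, adjusted p = 0.0569). It passed under 7 of 14 alternatives, quantile and median scaling among them, with adjusted p from 0.0106 to 0.25 over all 14. Heart 2, at 0.74, was highest, and the labelled difference was 0.07.

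Alpha chains that recognise the RGD motif of fibronectin, vitronectin and fibrinogen split in direction. Itga8, a receptor for nephronectin found on mesenchymal cells, read 0.77 and 0.57 in heart and -1.72 and -2.54 in tail, with -3.62 on heart 2 and 0.70 on tail 1. It had the largest passing difference among integrins above background in both pairs, 6.99-fold (log2 2.81, SE 0.31, adjusted p = 0.00854), with a labelled difference of 0.43 and a 4-array difference of 2.07 under normexp. Itga5, the chain of the main fibronectin receptor, moved the other way at 0.75 and 0.70 in heart and 2.50 and 2.44 in tail. Heart 2, at 0.80, and tail 1, at 0.44, both lay with heart 1 and 3. Heart was 3.36-fold lower (log2 -1.75, SE 0.14, adjusted p = 0.00373), and the labelled difference was -1.05 (adjusted p = 0.714). Itgav, the vitronectin receptor chain that serves several beta partners, lay between 0.96 and 1.93 on all arrays (log2 0.32, SE 0.23, adjusted p = 0.412; 0.05 by label).

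Itga2b, the fibrinogen receptor chain of platelets and their parent cells, was the other member lower in heart. It read -2.23 and -2.31 in tail, while -4.98 and -4.83 on heart 1 and 3 were not well above background. Heart 2 read 0.29 and tail 1 read -4.40. The tail level was at least 4.57-fold higher (fitted log2 -2.64, SE 0.15, adjusted p = 0.00158), and split by label the difference was -0.19. With normexp the 4-array value was -1.07 (adjusted p = 0.00792), a smaller fold than that bound. Platelet and megakaryocyte markers gave no shared direction: of 5 tested, Pf4 was higher in heart (log2 4.30) and Ppbp lower (at least 8.89-fold). Gp1ba, Gp9 and Gp6, which define that lineage, were not well above background on any of the 4 arrays.

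Smooth muscle markers moved with Itga5. Of 8 tested, 5 were lower in heart and 1 higher, with a median of -2.19 (-1.19 by label), led by Actg2 (log2 -5.48), Cnn1 (-5.04), Myh11 (-3.50) and Cspg4 (-3.15). Their summed level was 9.35 and 9.24 in heart, 10.58 and 10.29 in tail, 8.18 on heart 2 and 8.98 on tail 1. Their part in the Itga5 difference was not tested.

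Among the beta partners of alphav, Itgb3 and Itgb5 were well above background on all arrays and rose. Itgb3, the vitronectin receptor chain, read 2.69 and 2.78 in heart and 0.44 and 0.80 in tail, with -0.42 on heart 2 and 2.86 on tail 1. It was 4.32-fold higher (log2 2.11, SE 0.19, adjusted p = 0.00461), and a second probe gave 2.22, also passing. Itgb5, which binds vitronectin and latent TGF-beta, read 7.08 and 7.47 in heart and 5.84 and 5.89 in tail, with 3.27 on heart 2 and 7.40 on tail 1. Heart exceeded tail 2.65-fold (log2 1.41, SE 0.19, adjusted p = 0.0148). Heart 2 was again the lowest array at Itgb3 and Itgb5, whose labelled differences were 0.31 and -0.44. Itgb8, which holds latent TGF-beta, read -2.56 and -2.62 in heart, and its -4.81 and -6.05 in tail were not well above background. With -1.34 on heart 2 and -2.69 on tail 1, the heart level was at least 2.85-fold higher (fitted log2 2.84, SE 0.44, adjusted p = 0.0203). Its value with normexp was 0.84 (adjusted p = 0.0265), a smaller fold than that bound, and its call was lost under quantile normalization, with no filter and without heart 1 or heart 3. As at Itga2, heart 2 lay with the hearts and the labelled difference stayed positive at 2.34 (adjusted p = 0.714). The limit given there for dim probes on heart 2 holds here too. Itgb6, the TGF-beta-activating chain of epithelia, was well above background on heart 2 alone and was not tested.

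Itgb1 was close to level. It read 3.99 and 4.0 in heart and 3.88 and 3.87 in tail, with 1.90 on heart 2 and 3.86 on tail 1. The 4-array difference was 0.12 (SE 0.14, adjusted p = 0.613; -0.57 by label), so alpha partners that passed in either direction did so beside an Itgb1 difference within its error. Itgb4, the hemidesmosome chain that pairs with alpha6, lay between -2.29 and -1.63 on all arrays (log2 -0.13, SE 0.28, adjusted p = 0.789; -0.20 by label). Of 12 epithelial markers, 5 were tested, 0 were higher and 1, Dsp, was lower (at least 6.88-fold). Epcam, Cdh1, Krt8, Dsg3 and Grhl2 were not well above background on any of the 4 arrays.

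**Figure D3:**
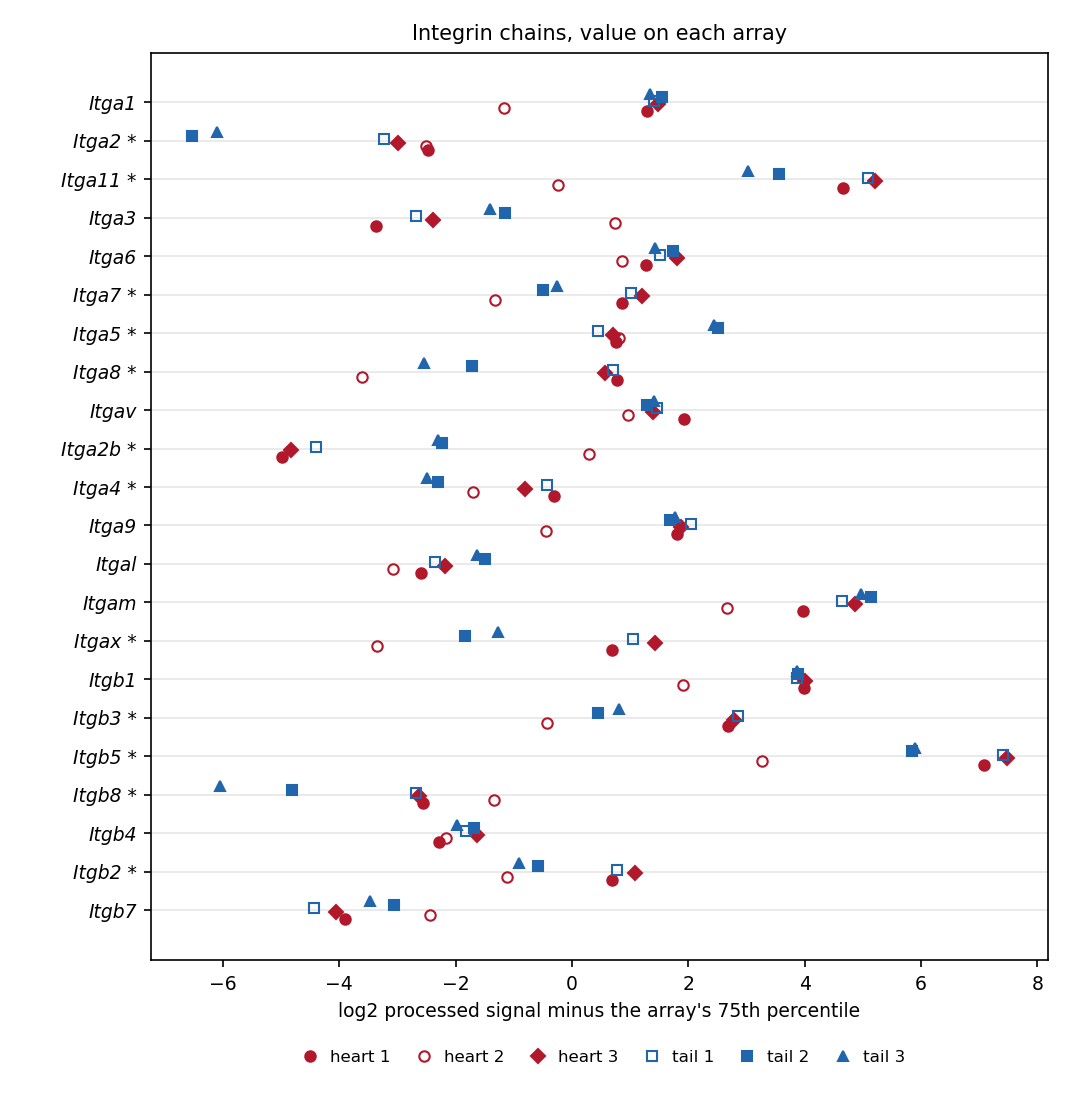
Log2 level of each of the 22 tested integrin chains (rows) on each array, relative to the array's 75th percentile (horizontal axis, 1 point per array); red is heart, blue is tail, an asterisk marks an adjusted p under 0.05 on the 4 arrays, filled points are heart 1, heart 3, tail 2 and tail 3, and open points are heart 2 and tail 1. Itga8, Itgb3 and Itgb5 show filled heart points above filled tail points, Itga5 and Itga2b show the opposite, and Itgb1 shows the pairs level between 3.87 and 4.0.

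Itga4, which binds fibronectin and VCAM1 on leukocytes and many mesenchymal cells, read -0.31 and -0.81 in heart and -2.31 and -2.50 in tail, with -1.70 on heart 2 and -0.42 on tail 1. It was 3.59-fold higher in heart (log2 1.84, SE 0.23, adjusted p = 0.0107), and the labelled difference was 0.80. Its relative Itga9, a tenascin receptor, lay between 1.68 and 2.04 on 5 arrays, with -0.44 on heart 2, and did not pass (log2 0.11, SE 0.14, adjusted p = 0.645; -0.75 by label).

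Leukocyte integrins pair an alpha chain of the CD11 group with Itgb2. Itgb2 itself read 0.68 and 1.09 in heart and -0.59 and -0.91 in tail, with -1.11 on heart 2 and 0.77 on tail 1. It was 3.10-fold higher (log2 1.63, SE 0.22, adjusted p = 0.0142). Itgax, the CD11c chain of dendritic cells and some macrophages, read 0.69 and 1.43 against -1.84 and -1.27, with -3.35 on heart 2 and 1.05 on tail 1. It was 6.12-fold higher (log2 2.61, SE 0.34, adjusted p = 0.0128). Both placed tail 1 between the heart values and heart 2 below every other array, and the labelled differences were 0.46 and 0.28.

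The other leukocyte chains tested did not share that pattern. Itgam, the CD11b chain of macrophages and neutrophils, read 3.97 and 4.87 in heart and 5.15 and 4.96 in tail (log2 -0.63, SE 0.34, adjusted p = 0.289; -1.08 by label). Its 3 tested probes gave -0.63, 1.09 and -0.74, none passing, so its direction is uncertain. Itgal, the CD11a chain, was at -2.60 and -2.17 in heart and -1.50 and -1.63 in tail (log2 -0.82, SE 0.20, adjusted p = 0.0711; -0.79 by label). Itgb7, a gut-homing chain, gave -0.72 (SE 0.20, adjusted p = 0.0979; 0.19 by label) and was not well above background on heart 3.

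Leukocyte markers moved with Itgb2 and Itgax. Of 13 tested, 8 were higher in heart and 0 lower, with a median of 1.91 (0.66 by label), led by Ms4a7 (log2 5.04), Aif1 (4.57), Cx3cr1 (3.54) and Cd52 (3.26). Their summed level was 6.37 and 7.16 on heart 1 and 3, 5.86 and 5.20 on tail 2 and 3, 4.41 on heart 2 and 6.81 on tail 1. All 13 were well above background on heart 1, heart 3 and tail 2, and 11 on tail 3, so leukocyte transcripts were present in both kinds of culture. Their part in the Itgb2, Itgax and Itga4 differences was not tested.

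**Figure D4:**
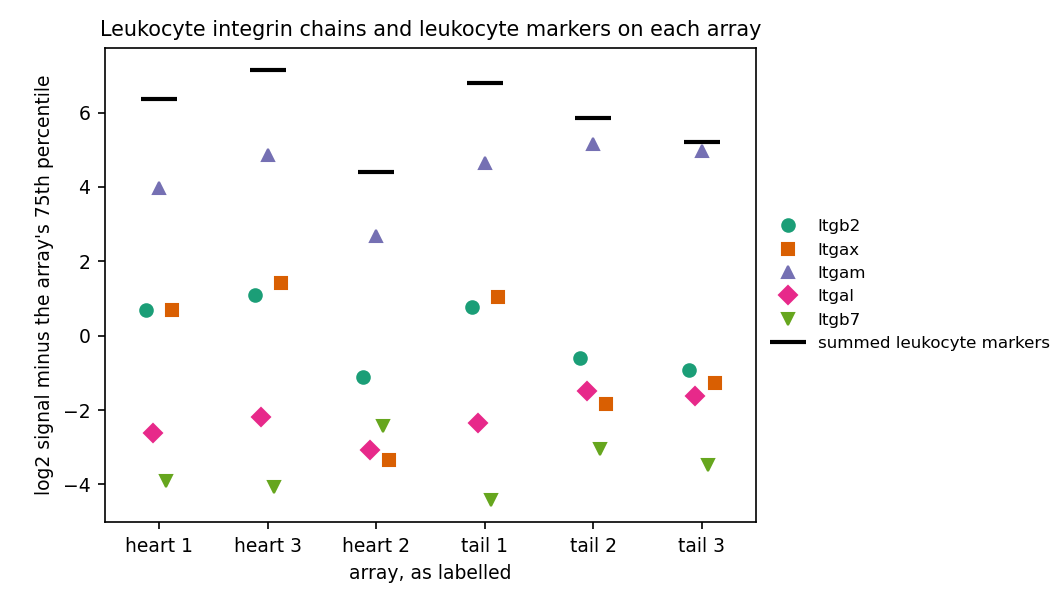
Log2 level, relative to the array's 75th percentile (vertical axis), of 5 leukocyte integrin chains (coloured points) and of the summed leukocyte markers (black bars) on each array (horizontal axis). Itgb2 and Itgax lie higher on heart 1, heart 3 and tail 1 than on tail 2, tail 3 and heart 2, as do the summed markers, while Itgam lies at 5.15 on tail 2 and 4.96 on tail 3, above heart 1 and 3.

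Genes around the receptors moved both ways on the 4 arrays, and split by label none of the list or marker genes passed, as no feature did. Of 24 tested integrin activators and cytoplasmic linkers, 4 were higher in heart and 3 lower, with a median of -0.27 (-0.56 by label). Parvg, the parvin of blood cells, was at least 2.32-fold higher, and Tns1, a tensin of fibrillar adhesions, differed by 1.08. Lims2, the PINCH2 adaptor, fell by 1.33, and Vcl, vinculin, which ties adhesions to actin, fell by 1.20. Of 16 tested integrin ligands, 4 were higher and 4 lower, with a median of 0.13 (-0.80 by label). Vtn, vitronectin, a ligand of alphav-beta3 and alphav-beta5, was at least 7.4-fold higher in heart. Egfl6 was at least 3.34-fold lower, and Thbs1 and Spp1, thrombospondin 1 and osteopontin, fell by 2.62 and 2.39. Fibronectin (Fn1), the ligand of alpha5, did not pass, with a difference of 0.70 (adjusted p = 0.108), and nor did nephronectin (Npnt), the ligand of alpha8, at 0.92 (adjusted p = 0.311); these 2 were picked after their values were seen.

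Among 20 tested laminin receptors of other kinds and basement membrane partners, 3 were higher and 3 lower, with a median of 0.25 (-0.60 by label). Bcam, an immunoglobulin-type receptor for alpha5 laminins, differed by 2.35, and Sgcb, a sarcoglycan, by 0.92. Utrn, utrophin, which links dystroglycan to actin, fell by 1.24. Dag1, dystroglycan itself, a receptor for Lama2 named after its values were seen, had a difference of 0.23 (adjusted p = 0.349). Schwann cell markers gave 1 higher (Cdh19, at least 2.55-fold) and 1 lower (S100b, log2 -2.75) of 3 tested.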

How the data were processed

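RNA was measured in 6 cultures, 3 labelled heart and 3 labelled tail, grouped by sample title. Each deposited array file gives a Cy3 intensity for every spot, which Agilent Feature Extraction 11.0.1.1 had background-subtracted without scaling between arrays, per the file headers. Per the file headers, other deposited columns hold median spot and local background intensities and flags of 0 or 1 for signal above background, saturation and outliers. The authors' deposited table holds 433 probes, each with heart over tail as a log2 value and as a linear fold ratio; its arrays, normalization and selection are not given in the sources used.

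Here, log2 processed signal was taken without control and outlier spots, averaged over the spots of a probe, and set relative to the array's 75th percentile over probes. Probes were named through RefSeq accessions (27235 probes). A probe was tested if 1 of the groups had it well above background on every array, and each gene was read from its tested probe of highest mean. Groups were compared with limma 3.58.1 (lmFit, eBayes, two-sided, in R 4.3.3), and p-values were Benjamini-Hochberg adjusted over all features, with 0.05 as the threshold. Python 3.11.15, pandas 2.3.3 and matplotlib 3.10.9 served for tables and plots. Where no array of the dimmer group was well above background, the fold is a bound: the brighter mean against the mean, per dim array, of either the probe's own signal or the dimmest signal that was well above background, whichever was higher. This bound holds only for the signals and background subtraction used. Normexp, run on median spot signals with an offset of 50, gave smaller folds at Itga2, Itga2b and Itgb8. An added offset itself narrows the differences of dim probes. The part of the background correction alone therefore cannot be told. Bounds of list genes were not compared with normexp. The fit was tested on simulated data.

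The members, the gene lists and the tests were chosen with earlier results of these data known. The 4-array comparison leaves out heart 2, doubted from its scanner values, and tail 1, doubted from its expression set against the deposited table. Labels were kept as given. Values on every array are given for members called on the 4 arrays, others by level or range, and up to 4 called genes of each list are named; 1 such gene is not reported here. All 6 arrays lay on 1 slide. Replicate numbers were checked as pairs, and same-numbered arrays did not all deviate together (r = 0.194, 0.259 and -0.329). The deviations were taken from group means that include heart 2 and tail 1, so the check cannot decide whether samples were paired. The number of arrays limits the precision, and p-values measure the spread between these pools only. Array headers name the mm9 build. Promoter sequences and their coordinates are RefSeq's for GRCm38.p6, matched by gene symbol. Alternatives were other normalizations, background corrections, probe filters, probe choices, outlier handling, variance estimates, blocks, array weights, each array left out and each probe on its own, the last chosen after seeing the data.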

Additional observations from a re-analysis of the deposited data

How the results depend on the processing

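On the 4 arrays, 3 of the 17 members called (Itga2, Itga2b and Lama2) passed under every alternative run that tested them, and the other 14 were lost under at least 1. Itga2 and Itga2b were not tested under the filter on all 4 arrays, having entered through their brighter group, so of the 3 only Lama2 was tested under all alternatives. With no filter on dim probes, 3 members passed, 2 higher and 1 lower in heart (714 of 37065 features). Quantile normalization gave 4 lower members, and a filter on all 4 arrays gave 1. Leaving out 1 array gave 8 to 19 members, 6 to 16 higher and 2 to 5 lower, where 1568 to 3948 features passed; the lone array left in a group is then assumed to vary like the others. Without tail 3, 8 passed, and without tail 2, 10. Uncalled members turned sign when 1 array was left out: Itga1 (-0.17 to 0.035), Itga6 (-0.32 to 0.22) and Itgb4 (-0.46 to 0.20), each positive without heart 1 or tail 2. No member's 4-array difference turned sign under quantile, median or normexp scaling, where the median over all features lay between -0.07 and -0.04. Each probe tested on its own also gave 17 members. Split by label, 0 members passed under all other alternatives, but array weights, which put heart 2 at 0.0209 and tail 1 at 0.405, gave 20, 15 higher and 5 lower, beside 4155 of 20196 features. Leaving out heart 2 and tail 1 gave 17, 15 higher and 2 lower. The replicate block gave 1 of 31 members, Itga2, higher in heart, beside 194 of 19674 features; same-numbered arrays deviated together at r = 0.194, 0.259 and -0.329 over 19674 features. No paired analysis was possible on the 4 arrays because the pairs share 1 number. Members with a labelled difference above 0 numbered 14, and 3 under median scaling, where the median over all features moved from -0.40 to -1.33. The labelled difference turned sign at 12 of 31 members under quantile normalization, 11 under median scaling and 2 under normexp. The sign of many labelled differences thus depends on the scaling. The causes were not tested. Normexp ran on median spot signals with an offset of 50, whereas the main values came from processed signals. Members not well above background have bounds only.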
